A study of Mus musculus with 14 samples.

Results

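H3K27me3 sites of intermediate width at promoters were examined in immortalised mouse embryo fibroblasts (iMEF). The 2230 sites were chosen by position and width from the 153983 sites of the H3K27me3 list. A site had to lie on chromosomes 1 to 19, measure at least 1000 bp and less than 5000 bp, and have its centre within 1000 bp of the transcription start site (TSS) of any transcript of a protein-coding gene. They made up 1.45% of all listed sites and 3.42% of the listed length. Of the 29646 autosomal sites in this width range, 7.52% met the promoter criterion, and of the 7415 autosomal sites of any width at promoters, 30.1% met the width criterion. Width and position were the values used for the choice and are given below as a description only.

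H3K27me3, the trimethylated form of histone H3 lysine 27, is set by the Polycomb repressive complex PRC2, is bound by CBX subunits of PRC1, and is found at the promoters of genes that a cell lineage keeps silent, among them regulators of development and genes specific to other tissues. In mammalian cells Polycomb complexes are known for their recruitment to CpG islands without transcription. Methylation of H3K4 by KMT2 complexes, of which ASH2L is a core subunit, is generally regarded as the opposing mark, and the experiment was designed to follow H3K27me3 while ASH2L was lost.

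The cells carried floxed Ash2l alleles, of which exon 4 had been deleted, and depended on human ASH2L fused to FKBP12F36V, delivered by lentivirus (FKBP-HA2-ASH2L). This FKBP tag makes a protein degradable by dTAG-13, a PROTAC that recruits an E3 ubiquitin ligase. According to the labels, H3K27me3 was measured in 12 libraries, 2 each of untreated cells and of cells exposed to dTAG-13 for 30 min, 2 h, 4 h, 8 h or 16 h, next to 2 input libraries. All groups therefore shared the deletion and the fusion protein, and the study ran its ChIP-seq in 1 clone, NG3. The list combines all of these samples and gives 3 values per site, a chromosome, a start and an end, so that neither the read depth behind a site nor a difference between control and treated cells could be determined from it. Each value below has no replicate, and 95% intervals cover the counting of sites or genes only.

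In the annotation, 2005 of the 20807 autosomal protein-coding genes (9.64%) had at least 1 site of this class, and this share is the background for all gene groups below. For comparison, 1883 genes (9.05%) had a site of 5 kb or more that overlapped the 1000 bp on either side of a TSS. There were 289 genes with both, which is 14.4% of the genes with an intermediate site. Wide sites were counted here by any overlap, which takes in more sites than a centre within 1000 bp. By overlap, sites of 1 to under 5 kb were at 13.4% of genes. A further narrow site, of less than 1000 bp, was centred at a TSS of 661 of the 2005 genes (33.0%), and of 13.5% of the genes without an intermediate site.

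The sequences under these sites differed widely in CpG content, and 200 bases upstream of the TSS, inside the site and free of annotated exons, are shown for 6 genes. They were selected to cover the range of promoter CpG content (Klf14 highest, Igsf5 median, Gm2431 lowest among the sites that allowed such a stretch) and the gene groups on which the results turn. All are read 5′ to 3′ on the strand of the gene from the mouse assembly GRCm38 (mm10), and capitals mark CpG dinucleotides.
Klf14 (chr6:30959079-30959278, minus strand): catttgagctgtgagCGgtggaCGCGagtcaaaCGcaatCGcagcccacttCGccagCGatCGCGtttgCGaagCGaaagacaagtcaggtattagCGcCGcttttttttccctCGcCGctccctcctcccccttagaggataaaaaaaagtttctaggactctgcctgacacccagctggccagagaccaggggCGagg
Sox2 (chr3:34650205-34650404, plus strand): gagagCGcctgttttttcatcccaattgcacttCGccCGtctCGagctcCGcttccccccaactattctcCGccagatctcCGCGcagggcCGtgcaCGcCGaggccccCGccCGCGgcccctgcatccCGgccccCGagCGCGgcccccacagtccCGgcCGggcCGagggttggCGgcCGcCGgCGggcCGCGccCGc
Col8a2 (chr4:126286593-126286792, plus strand): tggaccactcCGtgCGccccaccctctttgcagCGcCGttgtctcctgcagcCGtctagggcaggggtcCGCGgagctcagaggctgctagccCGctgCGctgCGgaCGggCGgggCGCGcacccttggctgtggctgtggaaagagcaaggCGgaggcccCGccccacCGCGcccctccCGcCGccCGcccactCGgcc
Chrna5 (chr9:54981266-54981465, plus strand): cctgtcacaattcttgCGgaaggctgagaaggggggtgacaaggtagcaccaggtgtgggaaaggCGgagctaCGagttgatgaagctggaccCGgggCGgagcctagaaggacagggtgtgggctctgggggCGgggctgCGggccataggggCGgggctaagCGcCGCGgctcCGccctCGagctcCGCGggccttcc
Igsf5 (chr16:96361468-96361667, plus strand): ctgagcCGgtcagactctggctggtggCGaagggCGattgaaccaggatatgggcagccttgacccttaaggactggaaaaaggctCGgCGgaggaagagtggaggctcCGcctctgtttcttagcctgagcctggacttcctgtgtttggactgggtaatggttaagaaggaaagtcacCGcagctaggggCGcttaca
Gm2431 (chr7:142258355-142258554, minus strand): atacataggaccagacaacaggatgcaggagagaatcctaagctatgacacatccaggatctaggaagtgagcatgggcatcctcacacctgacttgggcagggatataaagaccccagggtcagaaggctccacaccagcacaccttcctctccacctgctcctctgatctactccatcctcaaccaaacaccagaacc

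The stretch of Sox2, which encodes a pluripotency and neural progenitor factor, held 28 CpGs at a GC content of 75.5%. The stretches of Col8a2, a short-chain collagen gene, and of Klf14, a Krueppel-like factor gene, held 22 and 16 CpGs. At Chrna5, which encodes a nicotinic acetylcholine receptor subunit, 15 CpGs were counted. The stretch of Igsf5, a gene of the immunoglobulin superfamily, held 8. Upstream of the predicted gene Gm2431 no CpG was present although the GC content was 52.0%. The sites behind these stretches measured from 1768 bp (Klf14) to 4476 bp (Chrna5), and the stretches were picked to span the range of CpG content. They show that the class held CpG-dense and CpG-poor start regions, and not how often.

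The median width of the 2230 sites was 2253 bp (95% interval 2162 to 2329), with quartiles of 1478.5 and 3347.75 bp. There were 976 sites of 1 to under 2 kb, 543 of 2 to under 3 kb, 401 of 3 to under 4 kb and 310 of 4 to under 5 kb, so that the numbers fell from the lower to the upper end of the range. The 3 widest sites were at Spata31d1d (4997 bp), at Gpr25 (4996 bp), which encodes an orphan G protein-coupled receptor, and at Dmrt1 (4989 bp), a regulator of testis differentiation. Just above the limit were sites at Fam174b (5005 bp), Rgs3 (5007 bp) and Rasgef1c (5011 bp). The narrowest sites, each of 1000 bp, included those at Zscan10 and Shc2, and sites at Crx, Myo5c and Kncn missed the limit with 999 bp. By distance, Apba1, Sh3tc1 and Ntpcr had the outermost centres, 1000 bp from the TSS, while those at Kcne2 and Gm40460 missed the limit with 1002 bp.

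**Figure D1:**
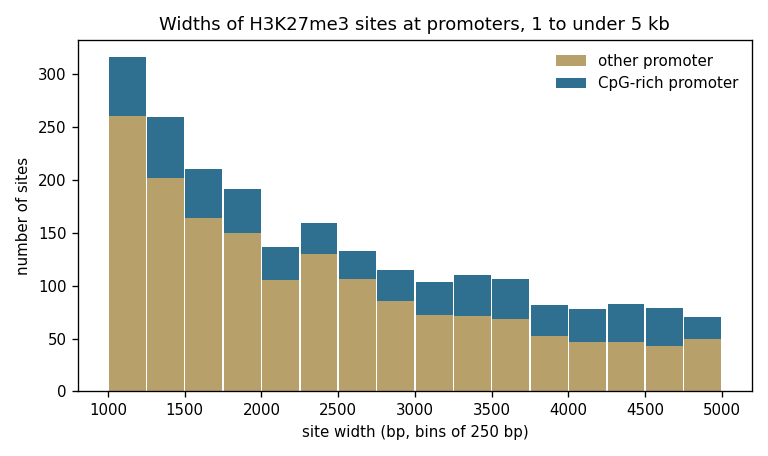
Widths of the 2230 H3K27me3 sites of 1 to under 5 kb at promoters; the x axis gives the width in bp in bins of 250 bp and the y axis the number of sites, stacked by whether the promoter was CpG-rich. The lowest bin holds 316 sites and the highest 70, and the blue part of the bars takes a larger share among wider sites.

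Most of the sites spanned the TSS. The nearest TSS was covered by 2050 of 2230 sites (91.9%, interval 90.7 to 93.0). For sites of 2000 bp or more this follows from the rule, and among the 976 sites of 1 to under 2 kb the share was 81.6%. Part of that share also follows from the rule, since every centre was within 1000 bp of a TSS, and how much was not determined. The sites were not centred evenly. The centre was downstream of the nearest TSS, on the side of the gene body, at 1340 sites (60.1%, 58.0 to 62.1), and the downstream share was over 50% on each of the 19 autosomes (52.3 to 68.3%). Sites over the TSS reached a median of 1079 bp upstream (1032 to 1120) and 1285.5 bp downstream (1246 to 1339). Of the 180 sites not over the TSS, 122 (67.8%, 60.6 to 74.2) lay wholly downstream. The 200 bp just downstream of the TSS held most centres, with 350 sites (15.7%), compared with 289 (13.0%) in the 200 bp just upstream and 94 (4.22%) in the outermost upstream bin. At a distance of 1000 bp, 65.9% of the sites were still present downstream and 52.0% upstream. The downstream share was 56.7% (55.2 to 58.2) for narrower sites at promoters and 54.8% (50.8 to 58.7) for sites of 5 to under 10 kb.

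**Figure D2:**
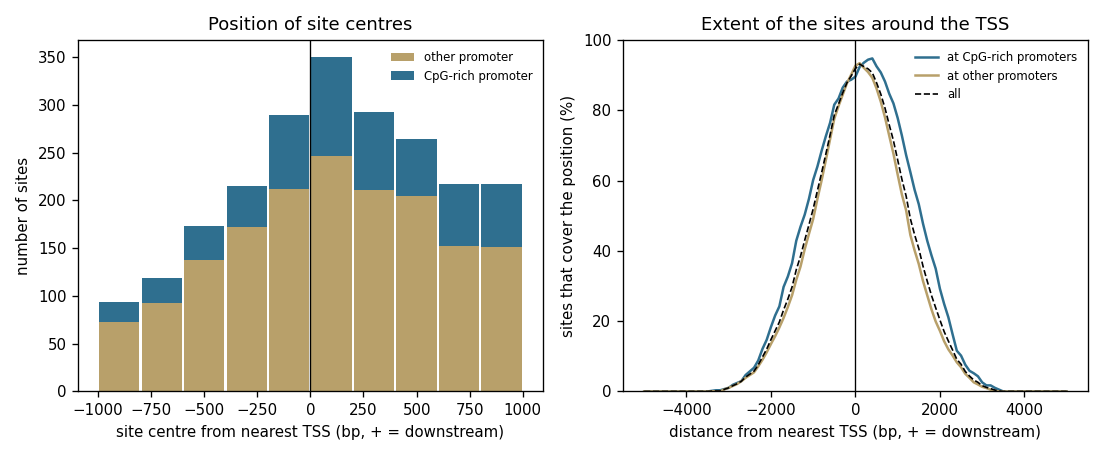
Left, number of sites by the distance of their centre to the nearest TSS in bp (bins of 200 bp, positive values downstream), stacked by promoter type; right, percentage of sites that cover each position from 5000 bp upstream to 5000 bp downstream, for all sites, those at CpG-rich promoters and those at other promoters. Both panels lean to the downstream side, with 217 centres in the outermost downstream bin against 94 in the outermost upstream bin.

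The centre fell in an exon for 34.2% of the sites (32.2 to 36.2), in an intron for 48.8% (46.8 to 50.9) and in intergenic sequence for 17.0% (15.5 to 18.6). Of all bases within 1000 bp of these TSSs, 28.4% were exonic, 55.7% intronic and 15.9% intergenic, so that exons held more and introns fewer centres than their share of the windows. The windows weigh every base equally, whereas the centres were densest just downstream of the TSS, and this was not adjusted for. Not all of the promoters were the start of the longest gene model. At 1287 sites (57.7%) the centre was within 1000 bp of the 5′ end of the gene record, and at 943 sites only another annotated start was that near. These 943 sites were narrower, with a median width of 2016 bp (1921 to 2130) compared with 2411 bp (2315 to 2492). The share of genes with a site was 7.54% for genes with 1 annotated start and 10.0% for genes with 10 or more.

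Genes with a site of this class had fewer CpG-rich promoters than genes in general. A promoter was termed CpG-rich when the sequence from 500 bp upstream to 500 bp downstream of the TSS reached a GC content of 50% and a CpG frequency of 0.6 relative to the expectation from its base composition. This was met at 578 of the 2230 sites (25.9%, 24.1 to 27.8), whereas 45.7% (45.0 to 46.4) of all protein-coding genes met it at the 5′ end. With sites at the 5′ end alone the share was 33.5% (31.0 to 36.1), and at the other starts 15.6% (13.4 to 18.0). Counted by gene, 6.81% (6.32 to 7.34) of the 9511 CpG-rich genes and 12.0% (11.4 to 12.6) of the 11296 other genes had a site. Counted by gene and at 5′ ends only, the shares were 4.57% and 7.86%. On all 19 autosomes the share of CpG-rich promoters was lower at the sites than among all genes of the chromosome.

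This share rose with the width of the site. It was 11.2% (10.3 to 12.2) for sites of less than 1000 bp at promoters, 25.9% for the intermediate sites, 40.3% (36.5 to 44.3) for sites of 5 to under 10 kb and 43.9% (37.2 to 50.9) for those of 10 kb or more. The intervals of the intermediate sites and of both neighbouring classes did not overlap. A site of 5 kb or more overlapped the promoter window of 8.71% (8.16 to 9.29) of the CpG-rich and 9.34% (8.82 to 9.89) of the other genes, so that the gap between the promoter types seen for intermediate sites was smaller for wide ones. Wide sites were counted by overlap and intermediate ones by their centre. The intermediate shares by promoter type were not counted by overlap.

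**Figure D3:**
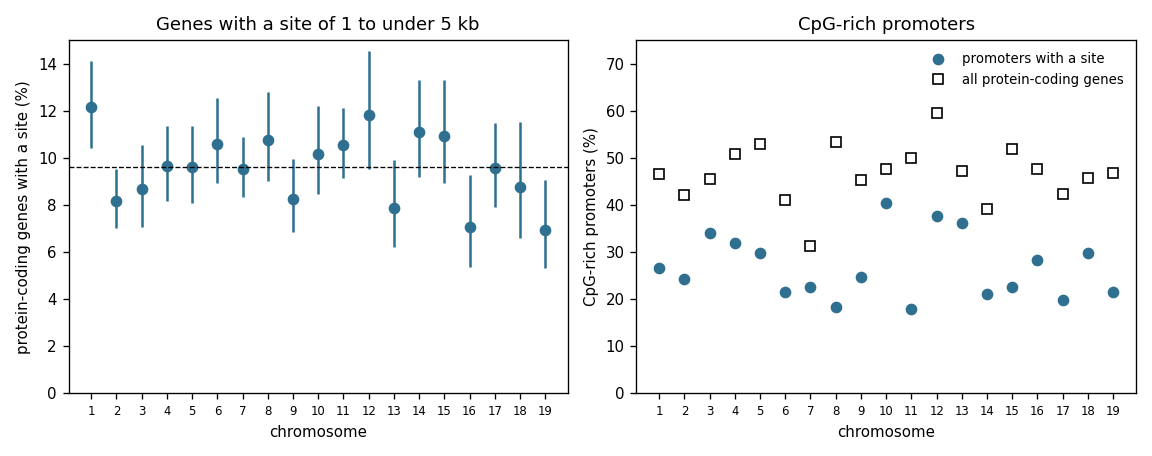
Left, percentage of protein-coding genes with a site of 1 to under 5 kb on each autosome, with 95% Wilson intervals and the value over all autosomes as a dashed line; right, percentage of CpG-rich promoters among the promoters with a site (filled) and among all protein-coding genes (open). Chromosome 1 has the highest share of genes with a site (12.2%) and chromosome 19 the lowest (6.95%), and each filled point lies below its open point.

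The sites at CpG-rich promoters were wider than the others, with a median of 2796.5 bp (2532 to 2982) compared with 2105 bp (2016 to 2188), and the downstream lean was larger, with 65.1% (61.1 to 68.8) and 58.4% (56.0 to 60.7) of the centres downstream. They also stood more alone. Of the 578 sites, 17.3% (14.4 to 20.6) had no other site within 5 kb, compared with 7.51% (6.33 to 8.88) of the 1652 others. When gaps of less than 5 kb were joined, 45.5% (41.5 to 49.6) of the sites at CpG-rich and 69.1% (66.9 to 71.3) of those at other promoters were in a stretch of at least 10 kb.

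The sequence within the sites was compared with that of the 27416 autosomal sites in the same width range away from promoters. Sequence around start sites is in general richer in CpG than the rest of the genome, and the comparison includes this difference. The median GC content was 51.5% (51.3 to 51.7) compared with 47.4%, and the ratio of observed to expected CpG was 0.323 (0.310 to 0.331) compared with 0.199 (0.198 to 0.200). Repeats marked in the assembly took a median of 11.6% (11.3 to 12.0) of the sequence compared with 16.8% (16.6 to 16.9). Each of these differences had the same direction on 19 of 19 autosomes. Within the class, the ratio was 0.543 (0.528 to 0.560) at CpG-rich and 0.255 (0.249 to 0.266) at other promoters, so that sites at the other promoters were also above those away from promoters.

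Intermediate sites at promoters were less often part of a long marked stretch than sites of the same width elsewhere. Another site was found within 1 kb of 75.5% (73.7 to 77.3) of them and of 86.1% (85.7 to 86.5) of the sites of the same width elsewhere. Joining gaps of less than 5 kb placed 63.0% (61.0 to 65.0) in stretches of at least 10 kb, compared with 82.0% (81.6 to 82.5), and the median stretch was 15463 bp compared with 34406 bp. Both shares were lower on all 19 autosomes. A stretch that held no other site was found for 224 sites (10.0%, 8.87 to 11.4), compared with 2.51% (2.33 to 2.70) elsewhere. Of these 224, 44.6% (38.3 to 51.2) were at CpG-rich promoters, compared with 11.8% (9.14 to 15.1) of the 449 sites in stretches of 50 kb or more.

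**Figure D4:**
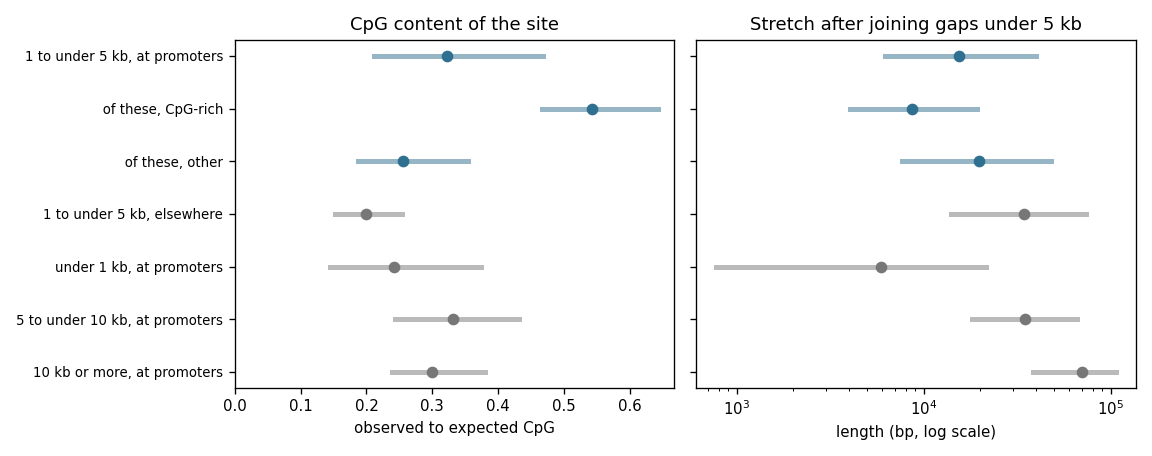
Ratio of observed to expected CpG within the site (left) and length in bp, on a log scale, of the stretch it belongs to after gaps of less than 5 kb were joined (right), for the intermediate promoter sites and for 4 other classes; points are medians and bars run from the lower to the upper quartile over sites. Intermediate promoter sites lie at a median ratio of 0.323 and those of equal width elsewhere at 0.199, while the median stretch is 15463 bp and 34406 bp.

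Single sites showed both extremes, and these were chosen after their values had been seen. The most isolated was a site of 1363 bp at Cdh7, which encodes a cadherin of the nervous system, with no other site within 892792 bp. It was followed by Epha6, an ephrin receptor gene, with 587995 bp, and Htr1b, a serotonin receptor gene, with 570386 bp. At the other end, the site of 1432 bp at Kif26a, a kinesin family gene, belonged to a stretch of 398662 bp, that of 2516 bp at Mapt, which encodes the microtubule protein tau, to one of 278395 bp, and that of 1949 bp at Pax5, a B cell factor gene, to one of 277778 bp.

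Genes for neurotransmitter receptors had the highest share of intermediate sites among the 37 groups examined. Of the 67 genes for glutamate, GABA, glycine and acetylcholine receptors, which mediate or modulate synaptic transmission, 30 had a site (44.8%, 33.5 to 56.6), compared with 9.64% of all genes. At 5′ ends alone it was 24 of 67. The widest was at Chrna3 (4622 bp, chr9:55024169-55028790), which reached from 2260 bp upstream to 2361 bp downstream of the TSS. Chrna3 and Chrna5 (4476 bp) encode subunits of ganglionic nicotinic receptors and neighbour each other, and each had a site of its own. The GABA-A receptor gene Gabrg3 had a site of 4571 bp. A site of 5 kb or more overlapped the window at 19 of the 67 genes. At 9 genes there was neither such a site nor a narrower one centred within 1000 bp of a TSS.

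Receptors for amines and neuropeptides also stood above the background, with 20 of 63 genes (31.7%, 21.6 to 44.0). The site at Hrh2, the histamine H2 receptor gene, measured 4846 bp and extended 3362 bp into the gene. The dopamine receptor gene Drd4 had a site of 4805 bp whose centre was 11 bp from the TSS, and the somatostatin receptor genes Sstr3 and Sstr1 had sites of 4622 and 4540 bp. Sites at Sstr3 and Sstr1 differed in their surroundings. At Sstr3 the next site was 21 bp away, in a stretch of 55244 bp, and at Sstr1 it was 138331 bp away. Of the 95 potassium channel genes, 23 (24.2%, 16.7 to 33.7) had an intermediate site and 50 (52.6%) a site of 5 kb or more. The widest intermediate sites were at Kcnh5 (4819 bp), Kcnk10 (4250 bp), Kcnh8 (4248 bp) and Kcnk4 (4105 bp). Voltage-gated calcium and sodium channel genes followed with 7 of 39 (17.9%, 8.98 to 32.7), among them Cacna2d3 (4675 bp) and the skeletal muscle channel gene Cacna1s (3503 bp), and 16 of these genes had a wide site. The interval of this group contained 9.64%, and at 5′ ends alone it had 3 of 39 (7.69%), against 6.36% of all genes.

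Cell adhesion and matrix genes differed by group. Cadherin genes outside the clusters reached 14 of 42 (33.3%, 21.01 to 48.45), with the hair cell protocadherin gene Pcdh15 (4638 bp), Cdh20 (3943 bp), Dchs1 (3942 bp) and Cdh4 (3726 bp) as the widest. Collagen genes reached the same count, 14 of 42. The fibrillar collagen genes Col1a1, Col1a2 and Col3a1, which are among the fibroblast identity genes below, had no intermediate site. The members with the widest sites were Col9a2 (3908 bp), a cartilage collagen gene, Col14a1 (3710 bp), Col8a2 (3081 bp) and Col9a1 (2419 bp). A wide site was present at 6 of the collagen genes (14.3%). Genes of claudins and tight junctions, which seal epithelia and endothelia, had 6 of 28 (21.4%, 10.2 to 39.5), with the endothelial claudin gene Cldn5 (4193 bp) and Cldn3 (3807 bp) the widest. With 5′ ends only, the claudin share was 14.3% (5.70 to 31.5), an interval that contained the 6.36% of all genes. Its interval also contained the share of all genes with any overlap and with a minimum width of 2000 bp. Keratin genes had 10 of 53 (18.9%, 10.6 to 31.4), led by the hair keratin genes Krt81 (3409 bp) and Krt35 (3143 bp), and at 5′ ends alone they had 5 of 53 (9.43%). For matrix proteases and inhibitors the count was 4 of 49 (8.16%, 3.22 to 19.2), and all 4 genes were of the Adamts or Adamtsl type. This interval contained the background. The share was above that of all genes with any overlap (18.4% against 13.4%) and with a minimum width of 2000 bp (8.16% against 5.78%).

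Shares of the transcription factor groups varied, and differences between these groups were not tested. Sox genes had 6 of 18 (33.3%, 16.3 to 56.3), all at 5′ ends, namely Sox21 (4449 bp), Sox2 (3993 bp), Sox17 (3850 bp), an endoderm factor gene, Sox8 (3625 bp), Sox6 (3043 bp) and Sox5 (2734 bp). T-box and Gata genes had 5 of 21 (23.8%, 10.6 to 45.1), with Tbx19 (4261 bp), a pituitary factor gene, as the widest. Only 3 of the 21 (14.3%, 4.98 to 34.6) had one at the 5′ end, an interval that contained the 6.36% of all genes. Of the lineage factors of the bHLH family, 14 of 61 (23.0%, 14.2 to 34.9) had a site, among them Hes3 (4248 bp) and Bhlha9 (4090 bp). Krueppel-like and nuclear receptor genes had 13 of 70 (18.6%, 11.2 to 29.2), including the mineralocorticoid receptor gene Nr3c2 (4808 bp), Rxrg (4404 bp) and the vitamin D receptor gene Vdr (4364 bp). At 5′ ends alone this group had 5 of 70 (7.14%), against 6.36% of all genes.

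Homeobox genes outside the Hox clusters, which specify body regions and organs, had intermediate sites at 18 of 140 (12.9%, 8.29 to 19.4), an interval that contains the background of 9.64%. Sites of 5 kb or more overlapped 90 of the 140 (64.3%). The motor neuron factor genes Isl2 (4854 bp) and Isl1 (4728 bp), Nkx2-4 (3721 bp) and Otx2 (3707 bp) had the widest intermediate sites. In the Hox clusters, 2 of 39 genes had one (5.13%, 1.42 to 16.9), Hoxd3 (3195 bp) and Hoxd4 (1675 bp), both away from the 5′ end of the gene record and both within the same stretch of 115575 bp, and 21 had a wide site. Forkhead genes were similar, with 3 of 41 (7.32%, 2.52 to 19.4), Foxd1 (2851 bp), Foxi1 (2011 bp) and Foxa1 (1814 bp), and 14 with a wide site. Counted by overlap like the wide sites, intermediate sites were at 15.0% of these homeobox, 5.13% of the Hox and 14.6% of the forkhead genes. The share of all genes was then 13.4%. Wide sites were thus more frequent than intermediate ones in all 3 families.

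**Figure D5:**
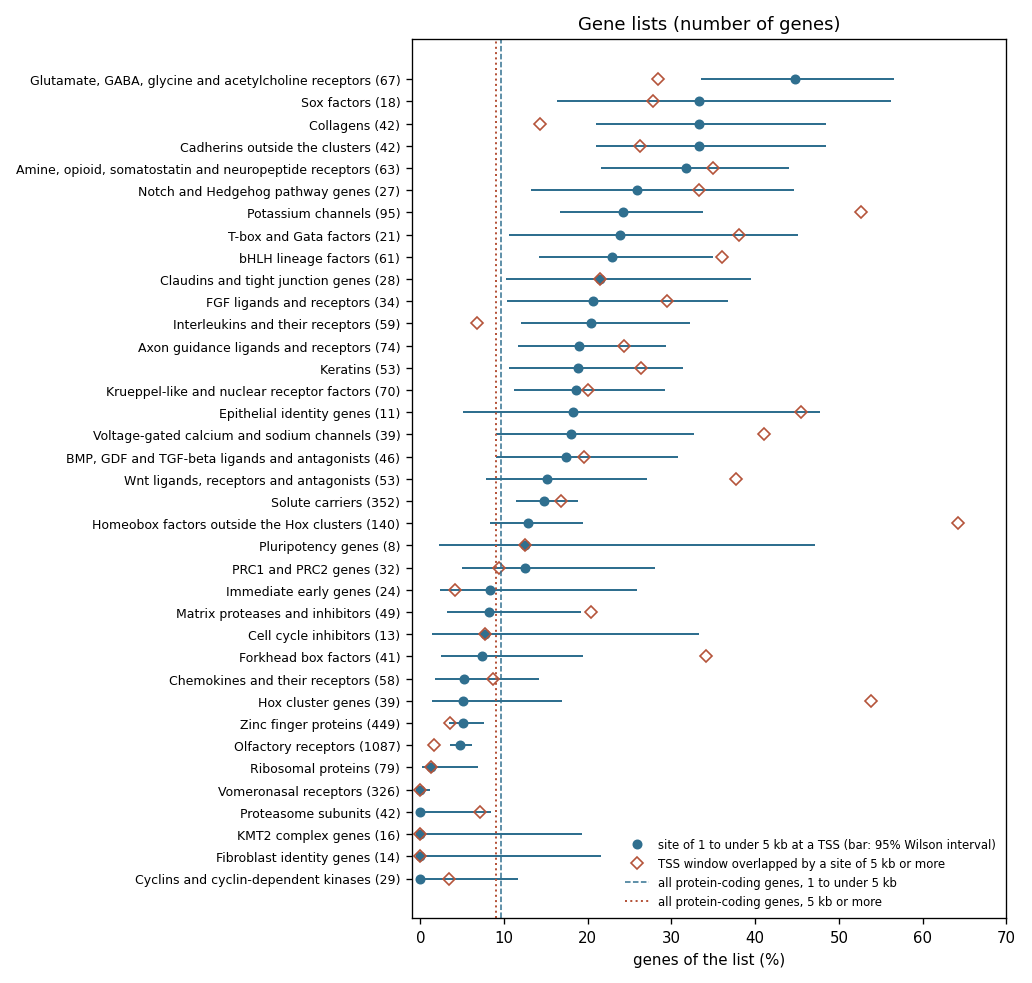
Percentage of the genes of 37 groups (number of genes in brackets) with a site of 1 to under 5 kb at a TSS (filled circles, with 95% Wilson intervals) and with the promoter window overlapped by a site of 5 kb or more (open diamonds); vertical lines give the values over all protein-coding genes, 9.64% and 9.05%. Glutamate, GABA, glycine and acetylcholine receptor genes have the highest share of intermediate sites (44.8%), and homeobox genes the highest share of wide sites (64.3%).

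Signalling genes lay above the background in part. Notch and Hedgehog pathway genes had 7 of 27 (25.9%, 13.2 to 44.7), including the Notch ligand gene Jag2 (4588 bp), the Hedgehog antagonist gene Hhip (4406 bp) and the Hedgehog effector gene Gli1 (2923 bp). At 5′ ends alone they had 4 of 27 (14.8%, 5.92 to 32.5), an interval that contained the 6.36% of all genes. FGF ligands and receptors had 7 of 34 (20.6%, 10.3 to 36.8), with Fgf12 (3179 bp) and Fgf14 (3173 bp) the widest. With 5′ ends only, the FGF share was 11.8% (4.67 to 26.6), an interval that contained the 6.36% of all genes. Its interval also contained the share of all genes with any overlap and with a minimum width of 2000 bp. Interleukins and their receptors had 12 of 59 (20.3%, 12.0 to 32.3) and wide sites at 4 genes, and the widest intermediate sites were at Il11 (4204 bp), the T helper cytokine gene Il5 (4164 bp) and Il24 (4058 bp). Axon guidance genes had 14 of 74 (18.9%, 11.6 to 29.3), with the semaphorin gene Sema4g (4884 bp) the widest. BMP, GDF and TGF-beta ligands and antagonists had 8 of 46 (17.4%, 9.09 to 30.7), all at 5′ ends, led by Fstl4 (4632 bp), Inhbc (4507 bp) and Bmp3 (4341 bp). Wnt genes had 8 of 53 (15.1%, 7.85 to 27.1), among them the secreted Wnt antagonist genes Dkk1 (3941 bp) and Sfrp2 (3365 bp), and the interval of this group and that of the BMP group contained the background. Chemokines and their receptors had 3 of 58 (5.17%, 1.77 to 14.1). With any overlap the chemokine share was 13.8%, against 13.4% of all genes. The solute carriers, at 52 of 352 (14.8%, 11.4 to 18.9), were the largest group above the background, led by the renal phosphate transporter gene Slc34a1 (4954 bp).

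Large families with few intermediate sites were also seen. Olfactory receptor genes, which are silent outside sensory neurons, had 51 of 1087 (4.69%, 3.59 to 6.12), with a median width of 1413 bp, and only 19 of these genes had a site at the 5′ end. The widest were at Olfr221 (4876 bp), Olfr313 (4535 bp) and Olfr311 (4345 bp). None of the 326 vomeronasal receptor genes had a site, and the upper limit of the interval was 1.16%. Zinc finger protein genes had 23 of 449 (5.12%, 3.44 to 7.57), with Zkscan16 (4330 bp) and Zkscan2 (4164 bp) the widest. These 3 intervals lay below 9.64%. With 5′ ends only, the zinc finger share was 4.23% (2.73 to 6.51), an interval that contained the 6.36% of all genes.

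Several smaller groups hold genes that fibroblasts or all dividing cells use, and others mark the state of a cell. A site was listed for 0 of 14 fibroblast identity genes (upper limit 21.5%), 0 of 29 cyclin and cyclin-dependent kinase genes (11.7%), 0 of 42 proteasome subunit genes (8.38%) and 0 of 16 genes of the KMT2 complexes (19.4%). Of 79 ribosomal protein genes, 1 had a site (1.27%, 0.224 to 6.83), Rpl3l, the muscle-specific paralog of Rpl3. Sites were present at 2 of 24 immediate early genes, Egr3 (2426 bp) and Fos (2046 bp), at neither of which the site was at the 5′ end of the gene record, at 1 of 13 cell cycle inhibitor genes, the imprinted Cdkn1c (2039 bp), at 1 of 8 pluripotency genes, Sox2, and at 2 of 11 epithelial identity genes, Cldn3 and the E-cadherin gene Cdh1 (3131 bp). Of the groups in this paragraph, those of the proteasome and of ribosomal proteins had intervals below 9.64%, while those of the others contained it. With 5′ ends only, the intervals of these 2 groups (upper limits 8.38% and 6.83%) contained the 6.36% of all genes. With any overlap of site and window, the shares of the immediate early genes (16.7%) and of the cell cycle inhibitor genes (15.4%) were above that of all genes (13.4%). Neither a wide site over the window nor a narrower one centred within 1000 bp of a TSS was found at 9 of the 14 fibroblast genes, compared with 71.6% of all genes. Sites of less than 5 kb that overlapped a window with a centre farther away were not counted here. At the epithelial genes 5 of 11 had a wide site. Among 32 PRC1 and PRC2 genes 4 had a site (12.5%, 4.97 to 28.1). These were Phf19 (3554 bp), which encodes a PRC2 accessory protein, Cbx7 (3261 bp) and Cbx2 (1233 bp), which encode readers of H3K27me3, and Bmi1 (1115 bp), which encodes a PRC1 core subunit. With any overlap the share of this group was also 12.5%, below the 13.4% of all genes.

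The 37 groups and their genes overlap in part, for example in Sox2 and Cdh1. The share was above 9.64% in 23 groups, and 5 groups had no gene with a site. When starts other than the 5′ end were left out, the background was 6.36% and 36 of the 37 groups stayed on the same side of it. The exception was the forkhead group, which kept 3 of 41 genes and was then above it. Genes with a site were longer than protein-coding genes in general, with a median length of 27504 bp (25284 to 29060) compared with 17629 bp (17174 to 18053). The median number of annotated starts was 3 in both.

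Of the genes the study uses as examples, Zfp503, which encodes a zinc finger repressor, had 1 intermediate site. It measured 1340 bp (chr14:21988792-21990131). Egr1, Rspo2 and Rab8a had neither an intermediate nor a wide site. Narrower sites, and intermediate sites centred farther than 1000 bp from a TSS, were not part of this count. The paper describes an increase of H3K27me3 in the Egr1 promoter region late after dTAG-13.

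Most genes had 1 site of this class (1769 of 2005) and 236 had 2 or more. Gramd1b, which encodes a sterol transfer protein, had the most, with 5 sites of 1249 to 3603 bp at different starts, none of them at the 5′ end of the gene record. Sites were found at 4 positions of Myt1, a neural zinc finger gene, which measured 3173, 2900, 1495 and 2573 bp, of Rgs6, a regulator of G protein signalling, of the semaphorin gene Sema4a, of the adhesion gene Dscaml1, of Nol4l and of 1700016D06Rik. Conversely, 43 sites were within 1000 bp of starts of 2 genes, in 35 cases on opposite strands. The widest of these was the site shared by Nol4l and 4930404H24Rik (4814 bp). The GABA-A receptor genes Gabra4 and Gabrb1 shared a site of 3275 bp, and the basement membrane collagen genes Col4a3 and Col4a4 one of 1848 bp, so that each of these pairs counted as 2 genes from 1 site in the group shares above.

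Neighbouring genes with a site were counted along each chromosome. There were 280 runs of at least 2 adjacent genes, which contained 619 of the 2005 genes (30.9%), and 49 runs had 3 or more. The longest run had 5 genes, Olfr211, Olfr212, Olfr213, Gm5580 and Olfr214, within 71.5 kb of chromosome 6. Runs of 4 were, for instance, the skeletal myosin heavy chain genes Myh3, Myh2, Myh1 and Myh4 within 182.1 kb of chromosome 11, and Lad1, Tnnt2, Pkp1 and Igfn1 within 187.7 kb of chromosome 1. These examples were picked after the runs had been listed, and how many runs would arise by position alone was not tested.

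Short sequence motifs of core promoters were counted in the 300 bases from 250 upstream to 50 downstream of the 5′ end of the gene, on both strands, for the 1283 genes with a site at that end and for all 20807 genes. The TATA box letters TATAAA occurred in 11.1% (9.47 to 12.9) compared with 12.7% of all genes. At CpG-rich promoters the values were 4.06% (2.548 to 6.401) and 5.81%, and at the other promoters 14.5% (12.3 to 17.0) and 18.5%. The letters CCAAT, bound by NF-Y, occurred in 31.0% (28.5 to 33.6) compared with 38.6%. The GC box letters GGGCGG, which contain a CpG and are bound by SP factors, occurred in 43.0% (40.3 to 45.8) compared with 43.7%. Among CpG-rich genes the GC box values were equal, 71.8% (67.3 to 75.9) with a site and 71.8% without regard to sites, and among the others they were 29.1% (26.1 to 32.2) and 20.1%. At CpG-rich promoters CCAAT occurred in 26.7% (22.7 to 31.2) of the genes with a site and 37.9% of all, and at the other promoters in 33.1% (30.0 to 36.3) and 39.2%. A match describes the letters only and is no evidence of binding.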

How the data were processed

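H3K27me3 ChIP-seq was performed on iMEF cells, in 12 libraries (6 groups of 2 replicates) with 2 inputs. According to the methods and the submitters' processing notes, the authors used Trim Galore for trimming, BWA for alignment to mm10 (GRCm38.p6) and SAMtools for filtering, merged replicates with Picard, scaled to the lowest coverage and called broad peaks with MACS2; deepTools is also named. Versions and thresholds are not given in the sources used here. The deposited list holds positions only (Chr, Start, End), without counts or scores, so depth is unknown. It was read as 0-based with the end excluded, since its smallest width was 200 bp, and is printed 1-based. Columns of per-sample values without a sample numbered 0.

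Sequence came from GRCm38.p6 and gene models from GENCODE M21 (the study cites a later release), and both were joined to the sites with Python 3.11.15, pandas 2.3.3 and NumPy 2.4.6. The centre of a site was assigned to the nearest TSS of a protein-coding gene. Shares have 95% Wilson intervals and medians have binomial order-statistic intervals. Both treat neighbouring sites as independent. Functions were tested on simulated data. Alternatives changed the distance, the minimum width, the set of starts, the overlap criterion, joining of sites, chromosomes, coordinate base, CpG threshold and gap. No test between groups was possible from this list.

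The class of sites and the 37 gene groups were chosen with earlier results of these data known. Named genes were those with the up to 4 widest sites per group, the sites next to each limit, the genes with the most sites, the sites with the most genes, and the study's examples. Genes named beyond this rule were chosen after their values were seen. Some items that this rule would name are not reported here.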

Additional observations from a re-analysis of the deposited data

Results flagged for a closer look

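Sites that met the criteria of width and position were also listed outside chromosomes 1 to 19, in data that the comparisons did not use. There were 143 on the X chromosome, where 129 of 948 protein-coding genes (13.6%, 95% interval 11.6 to 15.9) had one. Their median width was 1666 bp, and 21.7% were at a CpG-rich promoter. The Y chromosome had 0. A further 15 sites of 1 to under 5 kb were on 7 sequences outside the assembled chromosomes, among 105 listed sites on such sequences, and no promoter was assigned to them. The number of copies of the X chromosome in these cells is not given in the sources used here, and its part in these values was not tested.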

How the results depend on the processing

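Of 93 values obtained with 1 choice changed, 38 stayed within the interval of the reported value (or within 1.5 times a count) and 55 moved. With a distance of 500 bp there were 1386 sites, 100% over the TSS, 57.0% downstream, at 6.23% of genes, with a GC content of 51.7%, a CpG ratio of 0.338 and 60.0% in stretches of at least 10 kb. With 2000 bp these values were 3372, 70.1%, 57.6%, 13.2%, 50.7%, 0.278 and 66.3%, the median width was 2126 bp and 78.4% had a neighbour within 1 kb. A minimum width of 2000 bp left 1254 sites with a median of 3187 bp, 100% over the TSS, at 5.78% of genes, 30.1% CpG-rich, with a CpG ratio of 0.335, 77.4% with a neighbour and 67.5% in long stretches. The 100% over the TSS with a distance of 500 bp and with this minimum width follow from the rule. Any overlap with the window gave 3418 sites with a median of 2372.5 bp, 69.8% over the TSS, 57.5% downstream, at 13.4% of genes, with a GC content of 50.7%, a ratio of 0.275, 78.1% with a neighbour and 67.5% in long stretches. Basic transcripts alone gave 62.6% downstream, 7.57% of genes, 31.9% CpG-rich, a GC content of 51.8%, a ratio of 0.360 and 58.9% in long stretches. The 5′ ends of gene records alone gave 1296 sites with a median of 2414 bp, 64.3% downstream, 6.36% of genes, 32.8% CpG-rich, 51.9% GC, a ratio of 0.370 and 58.2% in long stretches. Joining sites closer than 1 kb first gave a median of 2369 bp, 6.94% of genes, 50.6% GC, 0.0658% with a neighbour within 1 kb, which follows from the joining, and 41.5% in long stretches. Stricter CpG limits (55% and 0.65) gave 19.7% CpG-rich promoters, a gap of 5 kb gave 90.0% with a neighbour, and joining gaps of less than 3 kb gave 49.8% in long stretches. Including the sex chromosomes or counting positions from 1 moved none of the 10 values.

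The downstream share stayed above 50% and the CpG-rich share below that of all genes under every alternative that gave them, except that all genes were not counted again with the stricter CpG limits. Of the 37 gene groups, 31 were on the same side of all genes with any overlap, 34 with a minimum width of 2000 bp and 36 with 5′ ends only, the last added after the data had been seen. The list combines all samples, so no replicate could be left out and the share of libraries behind a site is unknown. No paired analysis was possible because no result comes from values per library.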
